A study of Caenorhabditis elegans with 26 samples.

Results

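The data described here are the 2 small-RNA libraries of wild-type Caenorhabditis elegans, taken from a study of 26 libraries in 13 groups of 2. They were chosen by their label as wild type and were read as a pool in their own right, gene by gene, with no mutant beside them. The study's design text gives the material as whole worms. The labels name the group as wild-type and untreated, and neither strain, developmental stage and sex nor whether the libraries came from separate cultures is given. With 1 group of 2 libraries no test between groups can be made, so values are given for each library or as mean ± SD (n = 2), and the SD measures a spread that may be technical.

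Many small RNAs of the worm are copied from RNA, not from DNA. RNA-dependent RNA polymerases copy a target transcript into short antisense RNAs that begin with guanosine and carry a 5′ triphosphate, the 22G RNAs. Germ cells make many of them in mutator foci, granules beside the nuclear pores, and load them onto Argonaute proteins: the worm-specific WAGO proteins, linked to silencing of transposons, pseudogenes and some genes, and CSR-1, which binds RNAs against most germline-expressed genes. Primary small RNAs, the piRNAs bound by PRG-1 and the 26G RNAs bound by ERGO-1, set off much of this synthesis. The libraries were made after PIR-1 treatment, which shortens a triphosphate end so that it can be ligated, and therefore take in 22G RNAs. Read length, first base and strand were not analysed here, so a read on a gene is called only a small-RNA read.

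The libraries held 1149904 and 1359593 counted reads. A large part of each lay on F56H9.8, a protein-coding gene on chromosome V (12644800 to 12646679, plus strand). It held 593995 reads in library 1 and 673188 in library 2, which is 50.6 ± 1.51% of all counted reads. All but 1 of these reads were on its transcript F56H9.8a.2 of 1806 bases. Another 12 genes lie on the mitochondrial chromosome and held 27749 and 29878 reads, or 2.31 ± 0.152% of the total. Among the mitochondrial genes MTCE.26 had the most reads, with 5928 and 6722, and MTCE.31 had the most per length, with 6934 and 6966 reads per kilobase. MTCE.4 had the fewest, with 253 and 218. F56H9.8 and the mitochondrial genes were left out of what follows. The other 22255 genes held 528160 reads in library 1 and 656527 in library 2, and these are called the remaining reads. RPM stands for reads per 1000000 of these reads, and RPKM for RPM per kilobase of the gene's longest listed transcript.

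Small RNAs were spread very unevenly over genes. Of the 22255 genes, 8705 (39.1%) had 0 reads in both libraries, where a count of 0 allows up to 5.68 RPM in library 1 and 4.57 RPM in library 2 (3 counts, counting error only). Another 9527 genes (42.8%) had reads in both. A level of 25 RPM, equal to 13.2 reads in library 1 and 16.4 in library 2, was reached in both libraries by 3788 genes, which is 17.0% of those measured. These genes held 94.3% of the remaining reads. The 100 genes with the most reads held 39.4 ± 0.388% and the 1000 with the most held 75.1 ± 0.347%. Ordered by reads, 201 genes (0.903% of the total) sufficed for 50% of the reads, with 204 genes in library 1 and 197 in library 2.

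**Figure D1:**
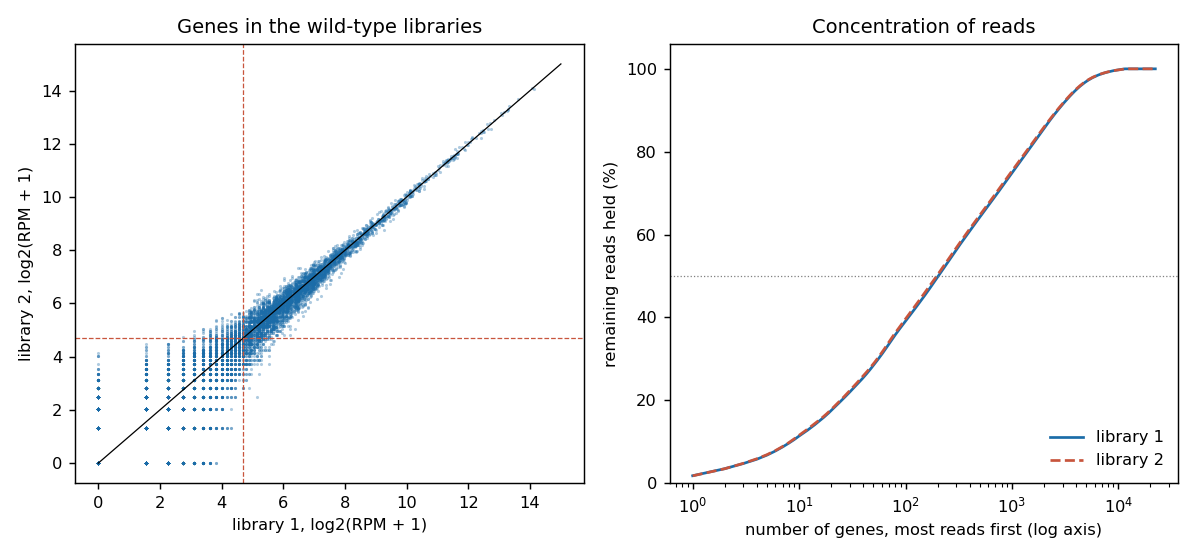
Left, log2(RPM + 1) of each of 22255 genes in library 1 (horizontal) and library 2 (vertical), with the line of equal values and dashed lines at 25 RPM. Right, share of the remaining reads (%) held by a growing number of genes in order of reads (log axis), with a dotted line at 50%. Genes with many reads lie close to the line of equal values, and the curves of both libraries pass 50% near 200 genes (204 in library 1 and 197 in library 2).

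The libraries gave nearly the same picture of the genes with the most reads. Over 4505 genes with at least 10 reads in each library, Pearson's r of log2(RPM + 1) was 0.976, a description across genes that share the same libraries. Among 1805 genes with at least 100 reads in all, 1536 (85.1%) differed by at most 1.25-fold between libraries and 29 (1.61%) by more than 1.5-fold. Both libraries had the same 25 genes at the top, and shared 98 of their 100 highest. Counts over the 4505 genes differed a little more than sampling alone gives (chi-square over its degrees of freedom 1.17), so the libraries were kept as 2. Y51A2D.1 had the largest ratio of library 1 over library 2, with 79 and 50 reads (1.96-fold after scaling), and ints-11, a subunit of the Integrator complex, came next with 72 and 47. In the other direction Y69A2AR.32 had 34 and 80 reads (1.89-fold higher in library 2) and smc-3, a cohesin subunit, had 34 and 76.

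The highest shares belonged to genes with no symbol, to pseudogenes and to a few conserved genes. Of the 25 genes with the most reads, 17 are annotated as protein-coding, 7 as pseudogenes and 1 has no annotation in the tables used. The highest was the pseudogene Y17D7C.3 (chromosome V, 18720589 to 18723771, minus strand, 7 exons), with 9404 reads in library 1 and 11231 in library 2, or 1.75 ± 0.0494% of the remaining reads. Close to it was the protein-coding W09C5.12 (chromosome I, 13661522 to 13662332, minus strand, 2 exons), with 8968 and 11555 reads. Their order differed between the libraries: Y17D7C.3 was the higher in library 1 and W09C5.12 in library 2. F02C12.3 (chromosome X, 13396973 to 13397782, plus strand, 3 exons) followed with 6634 and 8585 reads, then the pseudogene Y39E4B.14 (chromosome III, 13162475 to 13164864) with 5403 and 7144. The next places belonged to Y71A12B.10 on chromosome I (5322 and 6636 reads) and the pseudogene F37H8.2 on chromosome II (5277 and 6527), at shares of 1.01% and 0.997%. Together the 10 highest genes held 11.5 ± 0.140% of the reads and the 25 highest held 20.1 ± 0.190%.

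Among the 25 highest were several genes of known families. bath-45, which codes for a BTB and MATH domain protein of the kind that serves as a substrate adaptor for ubiquitin ligases (chromosome II, 13123020 to 13125189), had 5114 and 6333 reads. ugt-42, a UDP-glucuronosyltransferase (chromosome V, 647188 to 649763), had 4523 and 6055. got-1.2, an aspartate aminotransferase (chromosome X, 16791347 to 16793126), had 3504 and 4603. These enzymes and adaptors stood at 0.966%, 0.889% and 0.682% of the reads. trpp-10, a TRAPP trafficking complex gene, had 3623 and 3947 reads, and rnh-1.3, a gene of the ribonuclease H family, had 2369 and 3244. saeg-2 on chromosome III had 2573 and 3101, and ferl-1, a ferlin family gene annotated as a pseudogene, had 2321 and 3101. The largest difference between libraries within these 25 genes was that of trpp-10, at 6860 RPM in library 1 and 6012 RPM in library 2, and over the 154 genes with a mean of at least 1000 RPM the largest ratio was 1.17-fold.

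**Figure D2:**
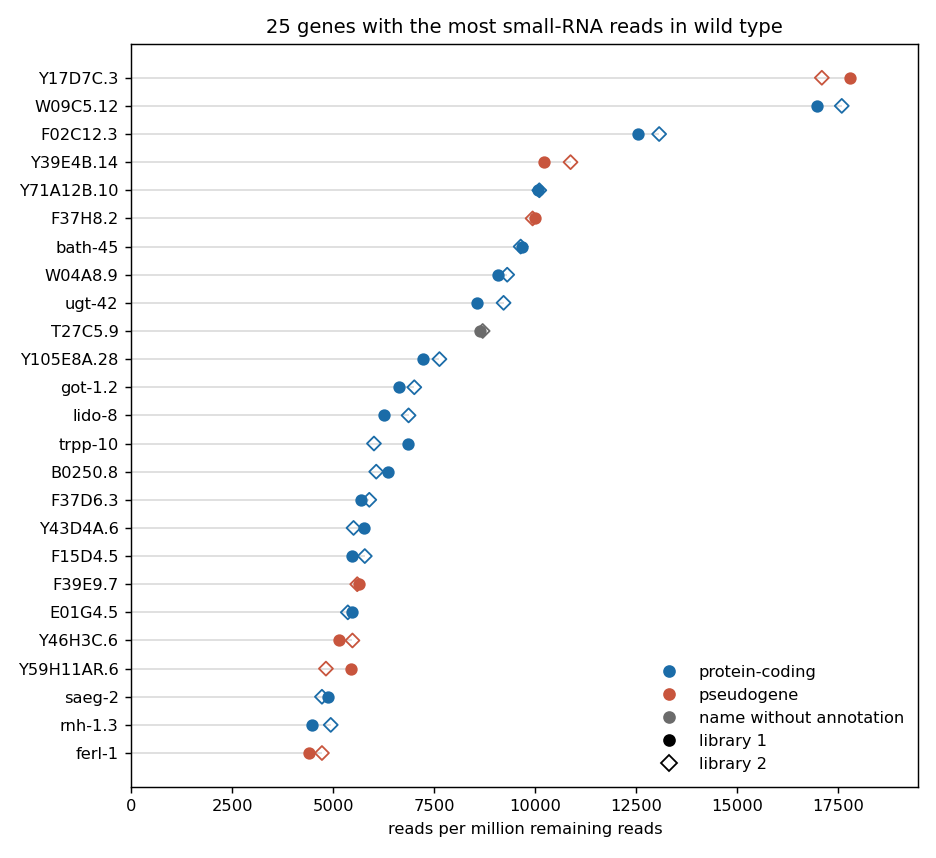
RPM (horizontal) of the 25 genes with the most reads, highest at the top. Filled circles are library 1, open diamonds library 2, and colour gives the annotated class (17 protein-coding, 7 pseudogenes, 1 name without annotation). Y17D7C.3 and W09C5.12 lie between 16980 and 17805 RPM, apart from F02C12.3 at 12561 and 13076 RPM and the rest.

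Length changed the order. Per kilobase of transcript the highest gene was W09C5.12, at 22513 ± 571 RPKM over 768 bases, before Y17D7C.3 at 21875 ± 619 RPKM over 798 bases and F02C12.3 at 17754 ± 505 RPKM over 722 bases. Y39E4B.14 (14056 ± 614 RPKM) and B0250.8 on chromosome V (12392 ± 395 RPKM, 501 bases) came next. Very short genes entered at this point: C01F6.14 of 225 bases had 11486 ± 131 RPKM from 1376 and 1683 reads, and F59C12.4 of 150 bases had 8620 ± 891 RPKM from 633 and 911 reads. T27C5.9, the tenth gene by reads, is listed at 4917 bases and stood at place 89 by density, at 1765 ± 8.05 RPKM. Over the 4505 genes with at least 10 reads in each library the median was 46.8 RPKM, 5% of genes lay below 11.7 and 5% above 628, and the highest gene was 481-fold above the median.

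Longer genes were more often at 25 RPM, and pooled density was highest in the class of the shortest genes and lowest in that of the longest. Genes were split into 5 length classes of nearly equal number. In the class of 1923 bases and more, 27.6% of genes reached 25 RPM and 27.6% had 0 reads. Of genes of at most 656 bases, 8.44% reached it and 54.6% had 0 reads. Pooled over all genes of a class, density was 18.5 RPKM in the longest class, 33.5, 31.5 and 57.2 RPKM in the classes between and 67.7 RPKM in the shortest. The median gene did not follow that order, at 1.17 RPKM in the longest class, 1.20, 0.802 and 1.04 RPKM between and 0 in the shortest. A fixed level in RPM asks a higher density of a short gene, so the share at 25 RPM is not independent of length. The 100 highest genes had a median length of 1160 bases and the median over all genes was 1119 bases. Their median exon number was 5, the same as over all genes, and 8 of the 91 with exon numbers (8.79%) had 1 exon, against 4.66% over all genes.

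A second property of the table bore on nearly every count. Many genes are listed as several transcripts that share most of their bases, and transcripts with few bases of their own held few reads. Bases that belong to 1 listed transcript are here called unshared. Counts are per transcript, so where a read lies within one was not measured. Transcripts of genes with several transcripts and with 0 unshared bases numbered 7842, spanned 16372 kb of length, and held 672 reads in both libraries together. Where such transcripts had at least 500 unshared bases, 79.2% had a read, and where they had 1 to 49, 12.9% did. Genes with 2 or more listed transcripts were 5761 (25.9% of genes and 36.6% of length) and held 8.42 ± 0.164% of the remaining reads. Of them 8.14% were at 25 RPM, against 20.1% of the 16494 genes with 1 listed transcript.

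Genes with at least 200 unshared bases allow a comparison of both denominators on the same genes. Per unshared kilobase their pooled value was 44.7 RPM where 1 transcript is listed, 34.1 where 2 are listed, 29.4 for 3, 30.2 for 4 or 5 and 59.5 for 6 or more. Per kilobase of full length the same genes stood at 44.04, 13.6, 9.09, 7.99 and 13.7 RPKM. The class of 6 or more rested on trpp-10 and eri-6, which held 75.6% of its reads: without them its value was 14.4 RPM per unshared kilobase. The share of these genes at 25 RPM still fell with the number of listed transcripts, at 20.7%, 17.9%, 15.6%, 12.04% and 6.10%. How reads that match several transcripts were counted is not given in the sources used here, and the RPKM of a gene with several transcripts divides its reads by a length that is mostly shared bases. lido-8 on chromosome II shows the extreme: its 3313 and 4510 reads were on a transcript of 1456 bases of which 114 are unshared. Nearly all reads of trpp-10 were counted on 1 of its 6 transcripts, Y71G12A.2c.4, with 3612 and 3935 of its 3623 and 3947 reads and 617 unshared bases. Of the 25 highest genes 23 have 1 listed transcript, and of the 100 highest 95 do.

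**Figure D3:**
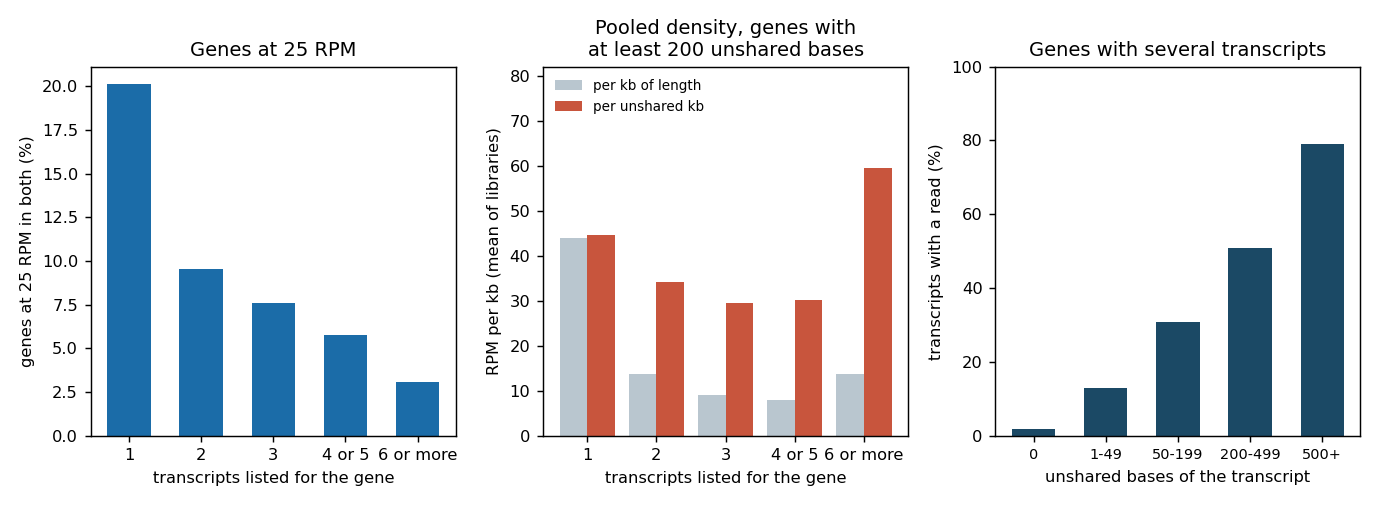
Left, genes with at least 25 RPM in both libraries (%) by the number of transcripts listed for the gene, falling to 3.11% at 6 or more. Middle, pooled RPM per kilobase, in grey per kilobase of length and in red per unshared kilobase, both over genes with at least 200 unshared bases; the red bar of 59.5 at 6 or more rests on trpp-10 and eri-6. Right, transcripts of genes with several transcripts that had a read in either library (%), by their number of unshared bases, from 1.71% at 0 to 79.2% at 500 or more.

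Pseudogenes held more small RNA than their number or length would give. The 1918 annotated pseudogenes were 8.62% of genes and 6.17% of transcript length and held 18.4 ± 0.0349% of the remaining reads: 18.3% in library 1 (95% exact binomial interval 18.2 to 18.4%) and 18.4% in library 2 (18.3 to 18.5%). The 19972 protein-coding genes held 76.8 ± 0.0852% of reads on 92.0% of the length. Pooled over the class, pseudogenes stood at 93.4 ± 0.178 RPKM and protein-coding genes at 26.2 ± 0.0291 RPKM. The surplus was carried by few pseudogenes. Of them 236 (12.3%) were at 25 RPM, against 17.5% of protein-coding genes, and 896 (46.7%) had 0 reads in both libraries, against 38.2%. The pseudogenes at 25 RPM had a median of 171 RPKM, against 52.3 RPKM for protein-coding genes at that level, and 32 of the 100 highest genes are pseudogenes. Among genes with 1 listed transcript, which most pseudogenes are, pseudogenes held 20.0% and protein-coding genes 74.7% of reads. Pseudogenes often resemble an intact gene, and reads that match both cannot be told apart here.

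Other pseudogenes show the range of the class. F39E9.7 on chromosome II, a known target of the ERGO-1 pathway, had 2980 and 3675 reads and 7434 ± 41.7 RPKM. Y59H11AR.6 on chromosome IV, with 2873 and 3166 reads over 541 bases, had 9484 ± 807 RPKM, and of its bases 391 are unshared. wago-2, an Argonaute gene annotated as a pseudogene, had 531 and 578 reads and 248 ± 23.2 RPKM.

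Pooled density was higher for protein-coding genes known by a sequence name alone than for those with a symbol. The 8707 protein-coding genes without a symbol held 36.4 ± 0.0394% of reads on 31.3% of the length, and the 11265 with a symbol held 40.4 ± 0.125% on 60.7%. In pooled terms this was 36.4 RPKM without and 20.9 RPKM with a symbol. The share at 25 RPM ran the other way, at 14.4% without and 19.8% with a symbol. The same held among genes with 1 listed transcript, at 50.2 and 31.6 RPKM and at 16.6% and 25.2%. Of the 60 protein-coding genes among the 100 highest, 37 have no symbol.

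A further 365 names (1.64%) matched no entry of the annotation tables used, so their class and place are not given. They held 4.88 ± 0.0502% of the reads, and 64 of them (17.5%) were at 25 RPM. T27C5.9 had 4568 and 5715 reads, T23B12.10 had 2028 and 2849, and Y102A5D.1 had 1664 and 2061. By density the highest were T23B12.10 at 4637 ± 401 RPKM and T16A1.9 at 3498 ± 90.9 RPKM.

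Chromosomes I, II and III held more reads than their part of the genes, and IV, V and X fewer. Chromosome I had 22.2 ± 0.112% of the remaining reads on 13.7% of the genes, II had 20.9 ± 0.0169% on 16.9%, and III had 14.9 ± 0.0739% on 12.5%. On the other side IV had 13.1 ± 0.0891% on 16.3%, V had 14.5 ± 0.0554% on 25.9%, and X had 9.48 ± 0.0734% on 12.9%. Pooled density was 46.0 RPKM on I, 39.98 on II, 33.7 on III, 26.1 on IV, 20.0 on V and 20.9 on X, so that V and X were the lowest and lay close together. Genes at 25 RPM were most frequent on III (28.2%) and I (26.8%) and least on X (8.33%) and V (10.42%). Among genes with 1 listed transcript the order of the chromosomes was the same, at 69.7 RPKM on I, 54.99 on II, 50.99 on III, 41.4 on IV, 33.1 on X and 26.4 on V.

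The 10 highest X-linked genes, F02C12.3, got-1.2 and his-24 among them, held 43.99% of the reads on X. The same share was 33.8% on V, 33.2% on I and 20.7% on III. The X genes at 25 RPM had a median of 70.1 RPKM, the highest of the chromosomes, where the others lay between 50.6 (III) and 57.4 (IV). Pseudogenes had a larger part of the reads on V (27.02 ± 0.219%), IV (24.1 ± 0.0922%) and II (23.3 ± 0.117%) than on X (17.3 ± 0.363%), I (12.9 ± 0.338%) and III (12.8 ± 0.111%).

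Chromosome arms were denser than centres on all 6 chromosomes. Each chromosome was cut into 3 parts of equal length between its outermost listed genes. The middle part was the least dense in each case: 27.8 RPKM on I against 43.97 and 70.8 on its left and right, 21.5 on II against 48.1 and 54.6, and 8.72 on X against 18.1 and 37.5. The right part of X held 56.7 ± 0.660% of the reads on that chromosome on 31.6% of its transcript length, and the right part of I held 48.7 ± 0.381% on 31.7%. The share of genes at 25 RPM did not follow this pattern on most chromosomes. It was lowest in the middle part only on III and X. On I and IV it was lowest on the right, and on II and V on the left. On V it was 11.5% in the middle, against 9.50% on the left and 10.2% on the right.

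**Figure D4:**
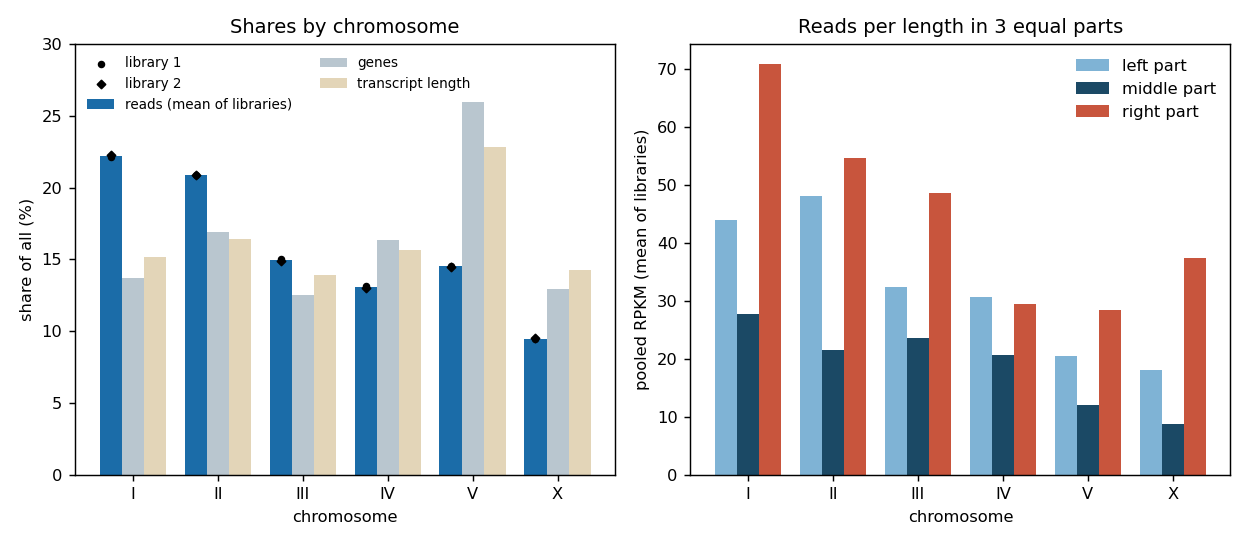
Left, share (%) of remaining reads (blue, mean of 2 libraries, with a point for each library), of genes (grey) and of transcript length (sand) by chromosome. Right, pooled RPKM (mean of libraries) in the left, middle and right part of each chromosome. Reads exceed genes on I, II and III, and the middle part is the lowest bar on each chromosome.

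The 4 windows with the most reads were each led by a gene that is among the 25 highest. Of 103 windows of 1 Mb, each with the genes that start in it, the median held 0.781% of the reads. The highest, on chromosome I from 13000001 to 14000000, held 5.14 ± 0.0729% over 196 genes, of which W09C5.12 made up 33.6%, and it still held 3.42% without that gene. It also holds Y71A12B.10 and W04A8.9. Next were the window of chromosome II from 13000001 to 14000000 (3.30 ± 0.0355%), led by bath-45, and that from 2000001 to 3000000 (2.77 ± 0.0501%), led by lido-8. On chromosome V the window from 18000001 to 19000000 held 2.70 ± 0.0340%, of which Y17D7C.3 made up 64.8%. The lowest window lay on X, from 10000001 to 11000000, with 0.0646% over 155 genes.

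Genes at 25 RPM also lay beside each other more often than other genes did. Of the 3724 with a place on a nuclear chromosome, 2035 (54.6%) had a direct neighbour, on either strand, that was also at 25 RPM, against 4361 of 18166 other genes (24.0%). Neighbours can overlap, and the reads of genes that overlap on opposite strands cannot be told apart here. Of 4595 genes that overlap a gene on the opposite strand 18.2% were at 25 RPM, near the 17.0% of all genes.

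Gene lists put these figures into a biological frame. RNA silencing genes and several groups of germline genes were often at 25 RPM in wild type, and genes of sperm, muscle, intestine and neurons rarely were. Over 6 lists of mutator, Argonaute, RNAi cofactor, germ granule, germline chromosome and germline RNA-regulator genes, 108 of 167 members (64.7%) were at 25 RPM, against 17.0% of all genes. The sperm families, also germline genes, went the other way with 4 of 82 (4.88%), and with them the count was 112 of 249 (44.98%). Over the lists of muscle, intestine and neuron genes 4 of 69 (5.80%) were. Splicing factor genes (64.3%) and nuclear pore genes (61.5%) reached shares like that of the 6 lists. Length differed too: the 6 lists had median lengths of 1765 to 3218 bases, sperm families 384 and all genes 1119. The level in RPM asks a higher density of short genes, and of all genes of 1923 bases and more 27.6% reached it. Among members with 1 listed transcript the counts were 90 of 99 (90.9%) for the 6 lists, 2 of 70 (2.86%) for sperm families and 3 of 42 (7.14%) for muscle, intestine and neurons, against 20.1% of all such genes. All 36 members of those 6 lists with under 200 unshared bases were below the level, so that number is given beside members with few reads. No mRNA was measured, so no tissue is inferred from these reads.

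The mutator complex makes secondary small RNAs in germ cells. Of its 11 listed genes 8 (72.7%) were at 25 RPM, against 17.0% of all genes. The median over all 11 was 44.8 RPKM, against 0.972 RPKM over all genes. mut-14, a DEAD-box helicase, had 124 and 157 reads (136 ± 1.76 RPKM). mut-7, an exonuclease, had 181 and 218 reads (113 ± 2.52 RPKM), and nyn-1, an endonuclease-fold protein, had 76 and 118 (99.2 ± 15.5 RPKM). Of all genes with 1 listed transcript 20.1% were at the level, and all 6 such members were. The 3 below it were mut-16, the scaffold of mutator foci, with 5 and 2 reads, rde-3, a nucleotidyltransferase, with 0 and 1, and rde-2 with 1 and 0. Their unshared bases number 69, 47 and 111, so little can be read from these counts.

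Argonaute genes ranged from 525 RPKM to 0, and those with 1 listed transcript from 525 to 0.581 RPKM. prg-1, the Piwi protein that binds piRNAs, had 714 and 952 reads (525 ± 26.0 RPKM), and hrde-1, the nuclear Argonaute of germline inheritance, had 472 and 551 (245 ± 10.9 RPKM). Of 23 Argonaute genes 12 (52.2%) were at 25 RPM, against 17.0% of all genes. csr-1 had 0 reads in both libraries with 75 unshared bases in 3662, which is not informative about the gene. By contrast nrde-3, a somatic nuclear Argonaute with 1 listed transcript of 3442 bases, had 12 and 18 reads (7.28 ± 0.965 RPKM), and wago-11 had 1 read in each library.

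In the list of RNA-dependent RNA polymerases, Dicer and cofactors 17 of 29 genes (58.6%) were at 25 RPM, against 17.0% of all genes. eri-6, a helicase gene of the ERGO-1 pathway on chromosome I, stood far above the others with 1864 and 2447 reads (1709 ± 65.9 RPKM), 47.1% of all reads on the list. Its reads were concentrated on 2 of its 7 listed transcripts, C41D11.1e.1 with 1217 and 1592 reads and C41D11.1f.1 with 595 and 794. sid-1, a channel for double-stranded RNA, had 472 and 643 reads (353 ± 22.8 RPKM). The germline polymerase gene ego-1 had 272 and 320 (94.7 ± 3.69 RPKM), the polymerase rrf-3 of the 26G pathway 118 and 122, and Dicer, dcr-1, 118 and 161 (39.8 ± 2.62 RPKM).

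Genes reported as targets of ERGO-1 26G RNAs, many of them recently duplicated genes, had the highest median of the 26 lists. Of 20 listed here 15 (75%) were at 25 RPM, against 17.0% of all genes. The median over all 20 was 145 RPKM, and the 20 held 1.90 ± 0.0188% of the reads on 0.0553% of the length. Beside F39E9.7, C44B11.6 of 189 bases had 528 and 716 reads (5530 ± 340 RPKM) and E01G4.5 had 2891 and 3522 (3970 ± 56.5 RPKM). At the other end F14F7.5 had 0 reads with 79 unshared bases, and fbxb-37, with 1 transcript, had 5 and 12. Duplicated genes share sequence, so reads may be divided among copies.

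Germ granule genes ranged from 0.314 RPKM to 313 RPKM, and those with 1 listed transcript from 8.42 to 313 RPKM. glh-1, a Vasa-like helicase, had 417 and 619 reads (313 ± 39.1 RPKM), car-1 had 173 and 210 (228 ± 3.82 RPKM) and mip-1, a LOTUS domain protein, had 223 and 258 (222 ± 11.3 RPKM). Of 19 granule genes 11 (57.9%) were at the level, against 17.0% of all genes. The scaffold genes pgl-1 and pgl-3 had 0 and 1 and 3 and 5 reads, with 70 and 13 unshared bases.

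Of 53 listed genes of chromosomes and spindles 37 (69.8%) were at 25 RPM, against 17.0% of all genes. All 30 with 1 listed transcript were, against 20.1% of all such genes. cdk-1, the mitotic kinase, had 341 and 480 reads (581 ± 51.01 RPKM), hcp-3, the centromeric histone H3, had 240 and 353 (489 ± 58.1 RPKM), and htp-1, a HORMA-domain protein of the meiotic axis, had 290 and 355 (443 ± 4.81 RPKM). The list named for RNA regulators of the germline also holds genes of other kinds (par genes, glp-1, rme-2, egg-1 and egg-3). It had lower values: 23 of 32 were at the level, led by puf-11 (134 ± 7.39 RPKM), daz-1 (129 ± 3.07 RPKM) and puf-8 (110 ± 9.43 RPKM). Splicing factor genes (18 of 28 or 64.3%, median 54.1 RPKM) and nuclear pore genes (16 of 26 or 61.5%, median 24.1 RPKM) fell in the same range. The densest of these were snr-5, with 37 and 23 reads (151 ± 71.2 RPKM), rsp-3 with 65 and 90, and npp-16 with 63 and 101. By reads prp-8 led the splicing list with 167 and 197, and npp-15 the pore list with 149 and 208.

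Sperm families had few reads. Of their 82 genes 49 had 0 reads and the median was 0 RPKM. spe-51 led them with 53 and 80 reads (70.2 ± 9.61 RPKM).

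Sex determination and dosage genes stood between those 6 lists and the somatic ones by their share at the level. Of 18, 7 (38.9%) were at 25 RPM, against 17.0% of all genes, and the median was 6.45 RPKM. xol-1, the switch gene that reads the X signal, had 60 and 54 reads (49.5 ± 11.2 RPKM), fem-2 had 28 and 45, and dpy-21, a gene of dosage compensation, had 80 and 87. her-1 had 0 reads with 373 unshared bases.

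Somatic lists had few genes at 25 RPM. The shares were 0% of muscle, 4.17% of intestine, 13.6% of neuron and 2.29% of collagen genes, against 17.0% of all genes. In the same order the medians were 0.802, 1.01, 0 and 0 RPKM, against 0.972 RPKM over all genes. Genes with 0 reads were 26.1%, 29.2%, 54.5% and 56% of the lists, against 39.1% of all genes. In whole worms few cells of a type and little small RNA per cell cannot be told apart. None of 23 muscle genes was at 25 RPM. The myosin heavy chain gene unc-54 came nearest, with 13 and 16 reads over 6204 bases (3.95 ± 0.0277 RPKM, 24.6 and 24.4 RPM). Of 24 intestine genes only vit-2, which codes for a yolk protein, passed, with 16 and 25 reads over 4934 bases (6.93 ± 1.12 RPKM). Of 22 neuron genes 3 did: egl-21, a carboxypeptidase that processes neuropeptides, with 142 and 168 reads (155 ± 5.41 RPKM), ida-1 with 42 and 53, and the cholinergic locus cha-1/unc-17 with 21 and 38. Of the neuron genes 12 had 0 reads. Collagen genes of the cuticle gave 4 of 175, among them col-71 with 279 and 358 reads (409 ± 9.19 RPKM), col-60 with 110 and 145, and col-111 with 97 and 128.

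Histone reads lay on few genes, and reads on ribosomal protein genes were spread over most. Of 80 histone genes 9 were at 25 RPM and 49 had 0 reads. The highest were linker histone genes: his-24 with 1227 and 1619 reads (2594 ± 109 RPKM), hil-8 with 1355 and 1742 (1513 ± 36.01 RPKM) and hil-3 with 442 and 480 (911 ± 86.8 RPKM). Core histone genes exist as many near-identical copies, where a read cannot be given to 1 copy. Of 78 ribosomal protein genes 5 (6.41%) were at the level, against 17.0% of all genes. Only 12 (15.4%) had 0 reads, against 39.1%. Their median was 19.0 RPKM, against 0.972 RPKM over all genes. Their median length was 513.5 bases, against 1119 over all genes, and the level in RPM asks a higher density of short genes. rpl-41.2 had 37 and 45 reads over 280 bases (247 ± 3.82 RPKM) and rpl-34 had 17 and 28.

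F-box and BTB/MATH genes held the most reads among the large families listed. F-box genes, whose products bring substrates to a ubiquitin ligase and which are very numerous in worms, held 3.38 ± 0.0457% of the reads on 1.42% of the length. Of them 79 of 391 (20.2%) were at 25 RPM, near the 17.0% of all genes. With 1 listed transcript the share was 21.0%, against 20.1%. fbxb-14 had 1572 and 2016 reads (4732 ± 104.4 RPKM) and fbxc-43 had 1686 and 2057 (3188 ± 42.1 RPKM). BTB and MATH genes held 2.50 ± 0.0309% of the reads on 0.435% of the length, and 35 of 114 (30.7%) were at the level, among them the pseudogene bath-22 with 1341 and 1672 reads and bath-24 with 1561 and 1842. The median member stood at 2.50 RPKM in F-box and 4.84 RPKM in BTB and MATH genes, above the 0.972 RPKM of all genes. Pooled density was far higher, at 74.9 and 180 RPKM, so most reads lay on a minority of members.

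In some other families 1 gene held much of the reads. ugt-42 alone held 91.6% of the reads on 67 UDP-glucuronosyltransferase genes. Of these 2 (2.99%) were at 25 RPM, against 17.0% of all genes. The second, ugt-31, had 369 and 445 reads, against 4523 and 6055 for ugt-42. srz-67 held 44.1% of the reads on 1628 chemoreceptor genes, with 1995 and 2303 reads (3759 ± 197 RPKM), and 24 of these genes (1.47%) were at the level. Nuclear hormone receptors gave 16 of 283 (5.65%), led by nhr-249 with 363 and 486 reads. C-type lectins gave 8 of 264 (3.03%), led by clec-76 with 170 and 206. Neuropeptide genes gave 4 of 148 (2.70%), led by flp-16 with 178 and 254. Cytochrome P450 genes gave 6 of 80 (7.5%) and stayed below 30 RPKM throughout. Heat shock protein genes gave 7 of 25 (28%), above the share of all genes. Among them were hsp-90, a gene with 128 unshared bases, with 107 and 141 reads, and hsp-16.20 with 64 and 66.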

How the data were processed

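Whole-number read counts per transcript were deposited by the authors as 1 table. Per the submitters' processing notes, cutadapt 4.9, Bowtie 1.3.1 and the WBcel235 genome were used. The counting program, the use of strand and the treatment of reads that match several places are not stated in those notes. From the 2 wild-type columns, 34324 identifiers were summed to 22268 sequence names (depths of 1149904 and 1359593 reads). Of these, 21895 matched the Ensembl 115 annotation of WBcel235, 8 matched RefSeq alone and 365 matched neither. Of 33755 transcripts matched by name, 33720 had the listed length. Unshared bases are exon bases of 1 listed transcript on either strand. F56H9.8 and the 12 mitochondrial genes were left out. Python 3.11.15, pandas 2.3.3 and scipy 1.17.1 were used. The ranking of genes by the ratio between libraries was tested on simulated data, and ranking by share or density was not.

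Named genes are the 25 with the most reads, the 15 densest, the 3 densest with at least 10 reads in each library in each class, chromosome and list, and the 5 largest and 5 smallest ratios between libraries among genes with at least 100 reads. Other genes (csr-1, nrde-3, ego-1, dcr-1, pgl-1 and others) were named after their values were seen. The lists and the libraries described were chosen with earlier results of these data known. Exact binomial (Clopper-Pearson) intervals are at 95% and cover counting error only. The reads carry no molecular identifiers in the sources used here.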

Additional observations from a re-analysis of the deposited data

How the results depend on the processing

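With all counted reads as the denominator, 1 gene held 50% of reads in place of 201, 2453 genes were at 25 RPM in place of 3788, pseudogenes held 8.65% and the X chromosome 4.46%, and the median density was 22.1 RPKM in place of 46.8, since F56H9.8 enters the total. With the transcript of most reads in place of the sum, pseudogenes held 18.4%. Without a filter on low counts the median density was 0.972 RPKM and r was 0.942, and with a pseudocount of 0.1 r was 0.975. With only genes of at least 10 reads in each library pseudogenes held 18.8% and X 9.36%. Further settings were chosen after seeing the data. With only genes of 1 listed transcript pseudogenes held 20.0%, X 10.1%, the median density was 54.98 RPKM and r was 0.977. Over bases of 1 listed transcript it was 55.4 RPKM per unshared kilobase. With 1 library left out in turn, 197 to 204 genes held 50% of reads, 4061 to 4068 genes were at 25 RPM, pseudogenes held 18.3 to 18.4%, X 9.42 to 9.53%, median density was 41.5 to 45.1 RPKM and 15 to 16 lists lay above the median of all genes (14 with both). The 25 highest genes were the same in each library. No paired analysis was possible because only 1 group is described. In all 30 alternative values stayed within their limits and 17 moved past them. For counts the limit was a set ratio, for shares and median density the SD of the libraries, and for r any change. A share with 1 library left out lies within that SD by construction, and r could hardly stay. The tally is therefore no measure of robustness. Precision is limited by about 13.2 and 16.4 reads at 25 RPM, and for genes with few unshared bases a low count says little.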

Other observations

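Genes that span the annotated place of another small RNA, on either strand, were looked at apart, since their reads could include that RNA. The 1054 genes that overlap an annotated piRNA locus were 4.74% of genes and held 6.29% of the remaining reads. Their pooled density was 32.6 RPKM, near the 31.4 RPKM of all genes, and 9 of them were among the 100 highest. At 25 RPM were 91 of them (8.63%), below the 17.0% of all genes. The 98 genes that overlap a microRNA locus were 0.440% of genes and held 0.863% of the reads, with 22 (22.4%) at the level. Genes that overlap an annotated antisense RNA were few (105), and their pooled density was 86.3 RPKM, against 31.4 RPKM over all genes. Of them 20 (19.0%) were at the level, near the 17.0% of all genes, and 2 were among the 100 highest. Genes that overlap a tRNA (233) or a snoRNA (200) stood at 12.7 and 16.1 RPKM pooled. These are values only, and the part of such RNAs in a gene's reads was not tested.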
